A study of Mus musculus with 16 samples.

Results

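Immediate early genes are the first genes that a cell transcribes after a growth signal or a stress, and they need no new protein to be switched on. The 10 genes described here were the rows of the deposited table that match the mouse symbols Fos, Fosb, Fosl2, Jun, Junb, Jund, Atf3, Egr1, Egr2 and Myc, out of 22372 genes in all. They were measured by RNA-seq in ventricle pieces from 4 groups of 4 C57BL/6J mice, 16 in all, and the mice were 10 to 12 weeks old when the experiment began. Transverse aortic constriction (TAC) narrows the aortic arch with a suture, so that the left ventricle pumps against a raised pressure, whereas the sham operation is done without the narrowing. Sham-Veh and TAC-Veh mice were given vehicle, and Sham-THZ1 and TAC-THZ1 mice were given THZ1, which binds covalently to CDK7, CDK12 and CDK13, kinases that activate RNA polymerase II. The compound was given as 2 intraperitoneal doses of 10 mg/kg daily, starting on day 1 after the operation and ending on day 60, so every TAC library shows a heart long after the constriction was placed. The hours between the last injection and tissue collection were not given in the sources used here. The study asked whether THZ1 blunts the transcription that stress switches on in the heart.

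Fos and Jun proteins pair through leucine zippers to form AP-1, a factor that binds short DNA sites at growth, matrix and inflammation genes. A Fos protein needs a Jun protein as partner, while Jun proteins can also pair with each other, and ATF3, a stress-induced member of the ATF group, can pair with Jun proteins. EGR1 and EGR2 are zinc finger factors, and MYC pairs with MAX to drive genes of ribosome production and growth. In the heart, hemodynamic load and stretch are classic triggers of Fos, Jun, Egr1 and Myc, and their transcripts are short-lived, so a level is a snapshot of recent transcription.

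The genes lie on 9 chromosomes of the mm9 build (NCBIM37) used by the deposited table. Fos spans chr12:86814840-86818223, Fosb chr7:19888070-19895394 and Fosl2 chr5:32438845-32460204. Jun spans chr4:94715725-94718913, Junb chr8:87500811-87502617 and Jund chr8:73221638-73224515, and each of these Jun genes has 1 exon. Atf3 spans chr1:192994175-193007219, Egr1 chr18:35020861-35024638, Egr2 chr10:66998223-67004936 and Myc chr15:61816946-61821929. Jun overlaps BC042782, Jund overlaps Gm11175 and Egr1 overlaps Gm17507 on the other strand, and reads were counted by strand. The reads in genes came to 21.4 to 35.8 M per library.

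Immediate early promoters are known for the CArG box, which serum response factor binds, and for sites of CREB, of AP-1 and of the EGR proteins themselves. RefSeq promoter windows, which run from 250 bases before to 50 bases after a transcription start on GRCm38.p6, matched 8 of the 10 genes, with 12 starts among them. Egr1 and Myc had no window, so their promoters were not searched. The windows were searched on both strands for the CArG box, the CRE (TGACGTCA), the AP-1 site (TGACTCA), the EGR site (GCGGGGGCG or GCGTGGGCG), the E-box (CACGTG) and the TATA box (TATAAA). Of the 8 genes, Egr2 alone had a CArG box in its windows, as did 1.63% of all 32851 windows. Fosl2 and Fosb had an EGR site (3.47% of all windows), and Egr2 had an E-box at its most upstream start (7.15%). Fos and Junb had the letters of the TATA box (13.6%), which in Junb lie at bases 1 to 6 counted from the start, not before it. None of the 8 had these exact letters of the CRE (1.79%) or the AP-1 site (5.2%). For these sites and for the CArG box alike, this says only that the letters are not in these windows.

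The 250 bases before the start are shown 5′ to 3′ on the gene's strand for the genes whose levels the results turn on, Egr2, Fosl2 and Atf3, and for Fos, the gene that gave the family its name. Capitals mark the CArG box in Egr2, the EGR site in Fosl2 and the TATA box in Fos. Each stretch was found once in the mm9 genome, at chr10:67000064-67000313 (plus strand) for Egr2, at chr5:32438595-32438844 (plus) for Fosl2, at chr12:86814590-86814839 (plus) for Fos and at chr1:193007213-193007462 (minus) for Atf3.
Egr2: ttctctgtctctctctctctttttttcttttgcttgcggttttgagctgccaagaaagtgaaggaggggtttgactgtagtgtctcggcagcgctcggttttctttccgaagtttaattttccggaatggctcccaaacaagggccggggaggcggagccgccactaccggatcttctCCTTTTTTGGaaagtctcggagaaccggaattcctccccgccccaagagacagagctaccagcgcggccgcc
Fosl2: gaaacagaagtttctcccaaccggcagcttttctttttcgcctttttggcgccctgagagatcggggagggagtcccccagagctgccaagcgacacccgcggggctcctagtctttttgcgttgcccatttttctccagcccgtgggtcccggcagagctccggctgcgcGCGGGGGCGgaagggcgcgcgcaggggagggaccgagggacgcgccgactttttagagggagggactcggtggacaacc
Fos: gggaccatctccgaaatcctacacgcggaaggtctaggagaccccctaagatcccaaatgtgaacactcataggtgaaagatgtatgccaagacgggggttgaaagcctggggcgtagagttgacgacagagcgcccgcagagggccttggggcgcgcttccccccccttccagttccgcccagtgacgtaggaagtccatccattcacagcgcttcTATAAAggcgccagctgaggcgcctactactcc
Atf3: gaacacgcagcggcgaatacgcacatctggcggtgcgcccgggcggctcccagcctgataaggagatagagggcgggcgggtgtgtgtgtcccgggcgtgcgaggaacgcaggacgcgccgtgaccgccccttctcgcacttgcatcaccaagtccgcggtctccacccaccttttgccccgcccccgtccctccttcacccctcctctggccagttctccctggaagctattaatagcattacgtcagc

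The CArG box shown in Egr2 lies at chr10:67000242-67000251, 72 to 63 bases before that start. The windows of the Egr2 starts further downstream share another CArG box, CCATATATGG, at chr10:67000545-67000554. The EGR site of Fosl2 is 79 to 71 bases before its start, and the TATA box of Fos is 33 to 28 bases before its start.

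Values below are normalized counts, the reads of a gene divided by the size factor of its library. Replicates 1 to 4 are different mice, and the labels give no meaning to their order. Fold changes are differences of mean log2(normalized count + 1) between groups. They were tested with limma over 13331 genes that passed a filter on low values, all 10 immediate early genes among them, and a gene was called at a Benjamini-Hochberg adjusted p under 0.05.

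Pressure overload raised 4 of the 10 genes in vehicle-treated hearts and lowered none. Egr2, Atf3, Myc and Junb were higher in TAC-Veh than in Sham-Veh, by log2 fold changes of 2.82, 2.29, 1.04 and 0.73. Over all genes tested, 21.4% were called higher and 23.6% were called lower in this comparison. The median log2 fold change was 0.61 for the 10 genes and -0.0030 for all genes. No immediate early gene was lower at an unadjusted p under 0.05 either, and edgeR and DESeq2 on the recovered reads also called 4 higher and 0 lower.

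Egr2, which is best known from nerve myelination and fibroblast activation, had the largest change. It had 26.5, 12.0, 13.3 and 17.2 normalized counts in Sham-Veh and 261, 218, 44.6 and 87.7 in TAC-Veh. Every TAC-Veh heart was above every Sham-Veh heart, but the TAC-Veh hearts themselves spread from 44.6 to 261. The log2 fold change was 2.82 (SE 0.48, 95% interval 1.81 to 3.84, limma adjusted p = 2.046e-04).

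Atf3, a factor induced by many kinds of cell stress, had 90.2, 53.7, 56.6 and 78.1 normalized counts in Sham-Veh. In TAC-Veh it had 653, 442, 229 and 193, again all above the sham hearts. Its log2 fold change was 2.29 (SE 0.31, 95% interval 1.63 to 2.95, limma adjusted p = 2.955e-05), a 4.88-fold difference on this scale.

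Myc had 79.6, 73.0, 64.5 and 71.2 normalized counts in Sham-Veh and 226, 193, 91.1 and 122 in TAC-Veh, with no overlap between the groups. The log2 fold change was 1.04 (SE 0.24, limma adjusted p = 0.002344). Junb, a Jun protein that can restrain Jun activity, had 359.6, 371, 340.4 and 361 in Sham-Veh, the tightest group of any gene here, and 577, 979.6, 433 and 503 in TAC-Veh. Its log2 fold change was 0.73 (SE 0.23, limma adjusted p = 0.01706). Without TAC-Veh replicate 2, the heart with 979.6, the Junb difference was 0.48 and was no longer called (adjusted p = 0.0642).

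**Figure D1:**
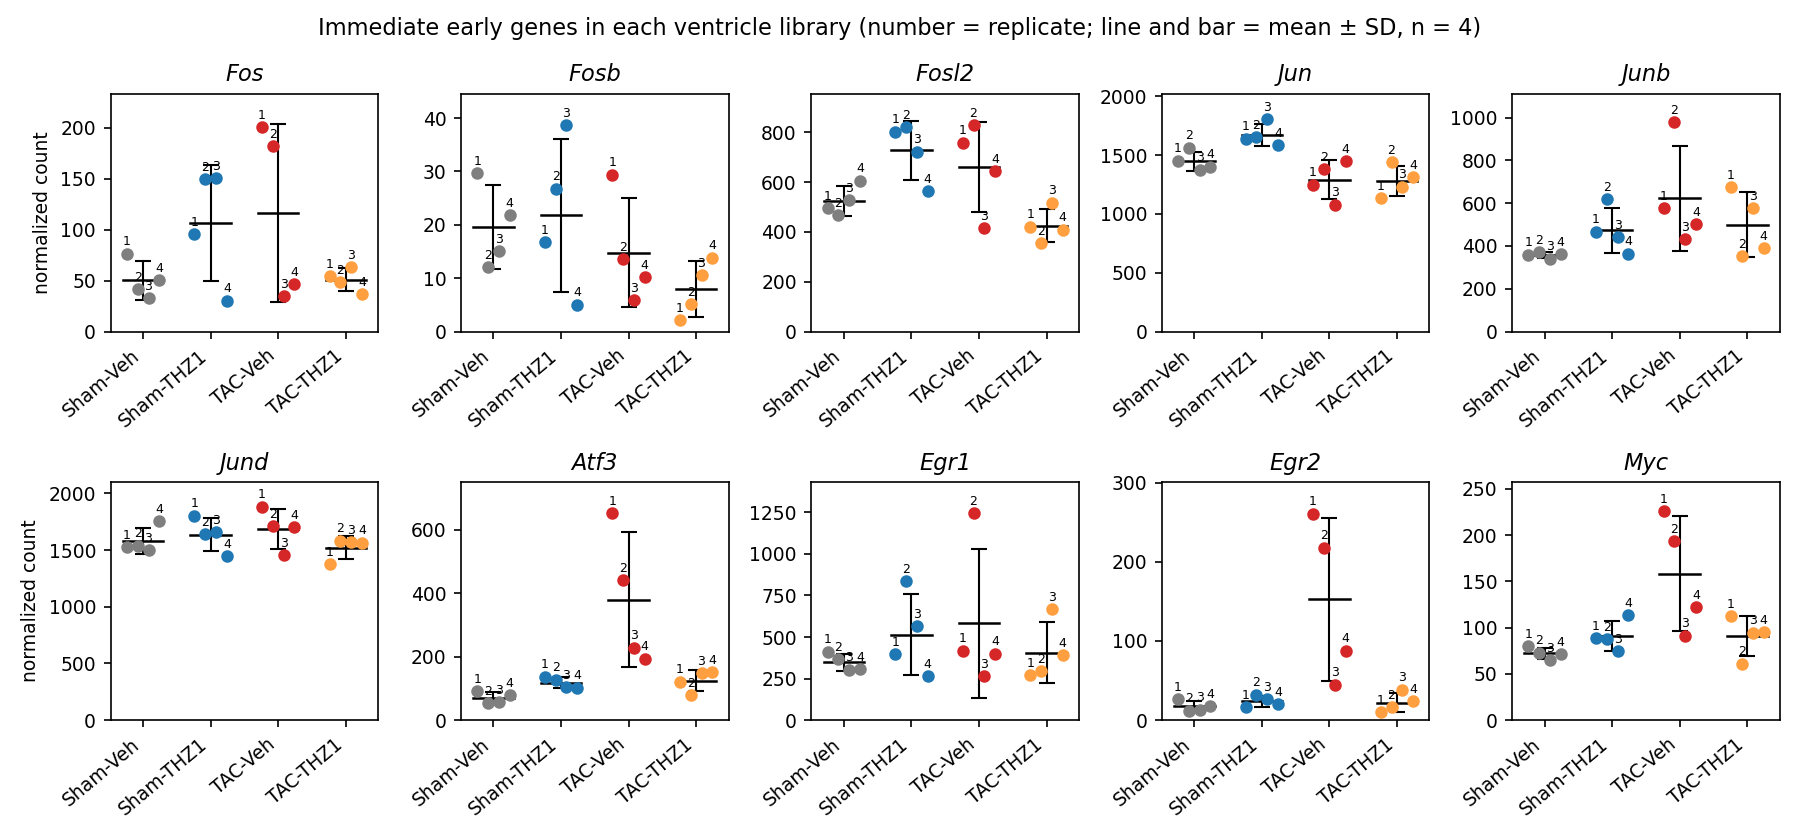
Normalized count (linear axis from 0) of each of the 10 genes in each library, by group, with the replicate number above each point and the mean ± SD of 4 hearts as a line and bar. Egr2 and Atf3 in TAC-Veh sit above every other group, from 44.6 to 261 and from 193 to 653, while Jun and Jund stay within narrow bands in all groups.

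The founding members of the family did not pass the test. Fos had 76.4, 41.7, 32.7 and 50.6 normalized counts in Sham-Veh and 201, 182, 34.7 and 46.8 in TAC-Veh, so 2 TAC-Veh hearts were far above the sham hearts and the other two lay among them. The log2 fold change was 0.87 with a 95% interval of -0.28 to 2.02 (limma adjusted p = 0.21). Egr1 had 413, 365, 303 and 307 in Sham-Veh and 419, 1247, 266 and 400.3 in TAC-Veh, where 1 heart carried most of the difference of the means. Its log2 fold change was 0.50 (95% interval -0.36 to 1.35, limma adjusted p = 0.34). The intervals of Fos and Egr1 include both no change and a rise of more than 1 on the log2 scale.

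Jun had 1451, 1562, 1375 and 1402 normalized counts in Sham-Veh and 1249, 1382, 1079 and 1451 in TAC-Veh, a log2 fold change of -0.17 (95% interval -0.36 to 0.015, limma adjusted p = 0.12). Without TAC-Veh replicate 4, the heart with 1451, Jun was called lower (-0.23, adjusted p = 0.0417). Jund, the Jun gene that most resting cells express, had 1525, 1539, 1501 and 1754 in Sham-Veh and 1883, 1710.4, 1456 and 1704 in TAC-Veh (log2 fold change 0.092, 95% interval -0.086 to 0.27, limma adjusted p = 0.39). The intervals of both genes were short. Fosl2, which encodes the Fos protein Fra-2, had 496, 468, 527 and 605 in Sham-Veh and 758, 829, 416 and 643 in TAC-Veh. Its log2 fold change of 0.30 was not called (limma adjusted p = 0.19), and it became 0.50 (adjusted p = 0.009663) without TAC-Veh replicate 3, the heart with 416. Fosb, which had the lowest mean count over all libraries, had 29.7, 12.0, 15.03 and 21.8 in Sham-Veh and 29.4, 13.6, 5.94 and 10.2 in TAC-Veh (log2 fold change -0.52, limma adjusted p = 0.49).

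THZ1 lowered 4 of the 10 genes in constricted hearts and raised none. Egr2, Atf3, Myc and Fosl2 were lower in TAC-THZ1 than in TAC-Veh, by log2 fold changes of -2.57, -1.47, -0.74 and -0.60. Of all genes tested, 14.2% were called lower and 15.1% higher. The median log2 fold change was -0.67 for the 10 genes, each of which had a value below 0, and 0.015 for all genes. No immediate early gene was higher at an unadjusted p under 0.05, and edgeR and DESeq2 on the recovered reads each called 4 lower and 0 higher. This comparison shares the TAC-Veh hearts with the one before it, so a high TAC-Veh heart adds to the rise in one and to the fall in the other.

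In TAC-THZ1, Egr2 had 9.83, 16.5, 38.2 and 23.8 normalized counts, all below the lowest TAC-Veh heart at 44.6. The log2 fold change was -2.57 (SE 0.48, limma adjusted p = 0.001187). Atf3 had 121, 77.7, 149 and 151, also below every TAC-Veh heart (log2 fold change -1.47, SE 0.31, limma adjusted p = 0.002793). Both genes were called lower in each of the 11 other settings tried and with each of the 8 TAC libraries left out in turn.

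Myc and Fosl2 overlapped between the groups. Myc had 112, 61.1, 94.4 and 95.004 normalized counts in TAC-THZ1, where 3 hearts were above the lowest TAC-Veh heart at 91.1 (log2 fold change -0.74, SE 0.24, limma adjusted p = 0.02953). Fosl2 had 422, 355, 518 and 409 against a lowest TAC-Veh value of 416 (log2 fold change -0.60, SE 0.18, limma adjusted p = 0.01919). These calls were less firm than those of Egr2 and Atf3. Fosl2 was not called without TAC-Veh replicate 2 (log2 fold change -0.48, adjusted p = 0.07429) or without TAC-THZ1 replicate 2 (-0.52, 0.06492). Myc was not called without TAC-Veh replicate 1 (-0.54, 0.08456), TAC-Veh replicate 2 (-0.61, 0.09987) or TAC-THZ1 replicate 2 (-0.56, 0.1049), and neither gene was called with library weights or when only these TAC groups were fitted.

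Junb, which rose with TAC, had 675, 354, 576 and 391 normalized counts in TAC-THZ1, of which 354 and 391 were below the lowest TAC-Veh heart at 433 and the others within the TAC-Veh range (log2 fold change -0.30, 95% interval -0.78 to 0.19, limma adjusted p = 0.35). Fos had 54.6, 48.4, 63.5 and 36.6, within the Sham-Veh range and below 3 of the 4 Sham-THZ1 hearts, and its log2 fold change of -0.81 was not called (95% interval -1.96 to 0.34, limma adjusted p = 0.28). Egr1 had 272, 294, 669 and 389 (log2 fold change -0.35, 95% interval -1.21 to 0.51, limma adjusted p = 0.55). Jun had 1136, 1439.8, 1231 and 1311, and its log2 fold change of -0.0082 had a short interval of -0.20 to 0.18. Jund had 1373, 1581, 1567 and 1565 (log2 fold change -0.15, limma adjusted p = 0.20). Fosb had 2.18, 5.09, 10.6 and 13.9, of which the first is 2 reads and lies under the level of 3 reads that a count of 0 allows (log2 fold change -0.84, limma adjusted p = 0.30).

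**Figure D2:**
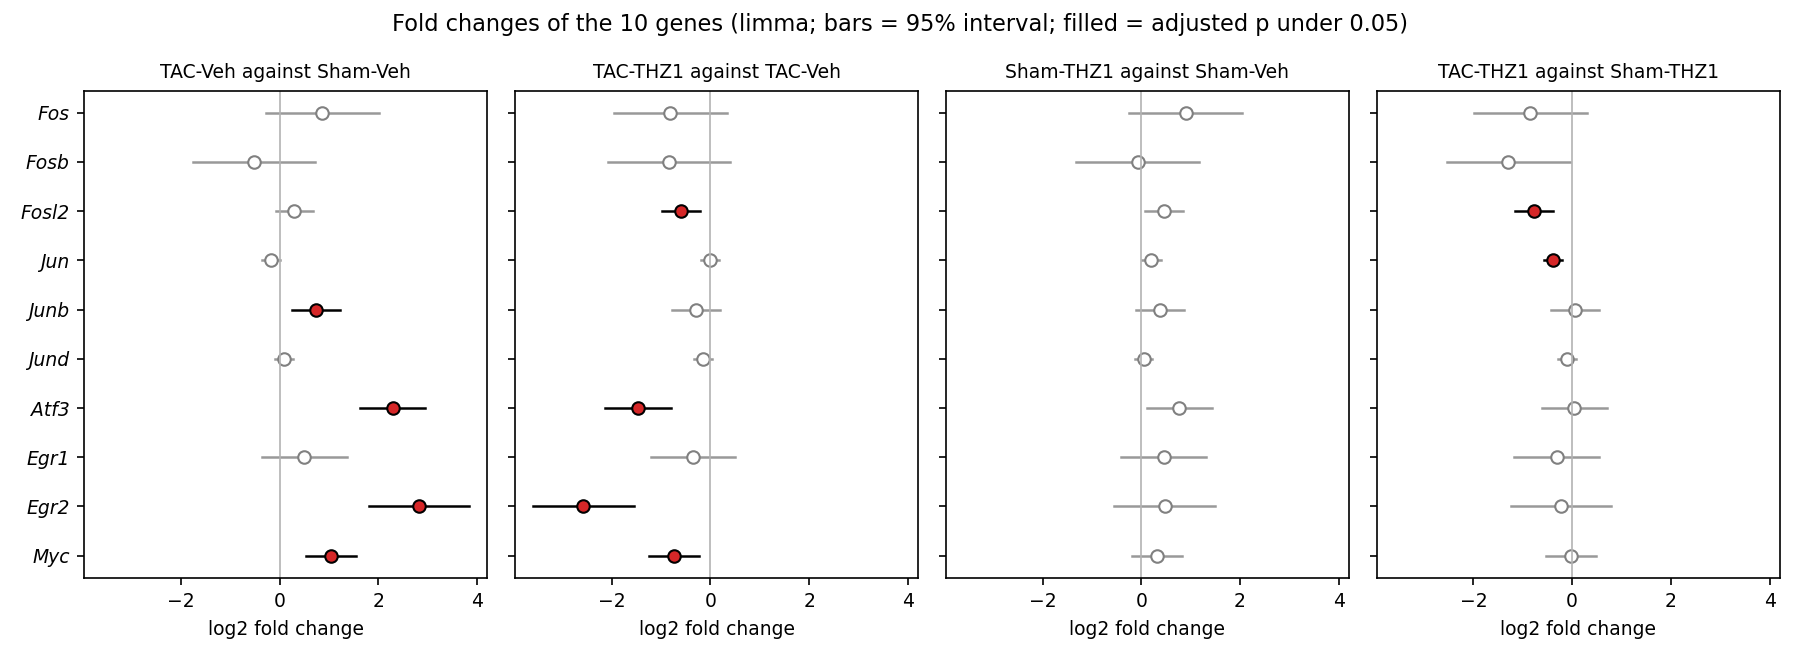
Log2 fold change (x axis) of each gene in 4 comparisons, with the 95% interval from limma as a bar and filled points for an adjusted p under 0.05. With TAC the filled points are to the right of 0 (Junb, Atf3, Egr2, Myc), with THZ1 in TAC they are to the left (Fosl2, Atf3, Egr2, Myc), and with THZ1 in sham none is filled.

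In sham hearts THZ1 moved no immediate early gene past the threshold, although 9 of the 10 had a fold change above 0. The median log2 fold change was 0.41 for the 10 genes and 0.0026 for all genes, and in the whole table only 0.0225% of genes were called higher and 0.045% lower. At an unadjusted p under 0.05, limma put 3 of the 10 higher (Fosl2, Atf3 and Jun) and 0 lower. Of all 13331 genes tested, 448 were higher and 469 lower at that unadjusted threshold. At an adjusted p under 0.05, limma, edgeR and DESeq2 each called 0 of the 10. When the model held the sham libraries only, Fosl2, Atf3 and Jun were called higher, where 2.15% of all genes were called higher and 1.34% lower. With weights for each library, Fosl2 and Atf3 were called (1.91% of all genes higher, 1.94% lower).

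Atf3 had 137, 128, 104 and 102 normalized counts in Sham-THZ1, all above the Sham-Veh hearts, of which the highest had 90.2 (log2 fold change 0.77, SE 0.31, limma adjusted p = 0.68, and 0.02293 with the sham libraries alone). Fosl2 had 803, 821, 723 and 564, where 3 of 4 hearts exceeded the highest Sham-Veh heart at 605 (log2 fold change 0.46, limma adjusted p = 0.66, and 0.03144 with the sham libraries alone). Jun had 1640.0, 1649.8, 1803 and 1583, all above Sham-Veh (log2 fold change 0.21, limma adjusted p = 0.69, and 0.04211 with the sham libraries alone). The mean of Fosl2 was 1.39 times that of Sham-Veh.

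Fos in Sham-THZ1 had 95.4, 149.5, 151 and 30.4 normalized counts, so 3 hearts were above the highest Sham-Veh heart at 76.4 and the fourth was below the lowest at 32.7. The log2 fold change was 0.90 (95% interval -0.25 to 2.05, limma adjusted p = 0.81). Egr1 had 396, 835, 564 and 264 and Fosb had 16.7, 26.8, 38.7 and 5.07, with the same heart lowest. Junb had 466, 618, 441 and 365, Jund 1802, 1637, 1659 and 1448, Egr2 16.7, 32.0, 26.7 and 20.3, and Myc 88.3, 87.3, 74.8 and 113. None of these other 6 genes was called (limma adjusted p from 0.81 to 0.9975).

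Sham-THZ1 replicate 4 was the lowest of its group in 8 of the 10 genes, with Egr2 and Myc as the exceptions. Nr4a1, an immediate early nuclear receptor, was also low in that heart, at 134.7 normalized counts against 633 to 930 in the other Sham-THZ1 hearts. Sums of cardiomyocyte and fibroblast markers in that heart, 1086630 and 22286 normalized counts, lay within the range of its group. Neutrophil and erythroid markers were lowest of the group there, at 84.1 against 125 to 567 and 5687 against 7341 to 10160.0, and endothelial markers were highest, at 22994 against 21569 to 22173. The part of these cells in the low values was not tested.

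Among THZ1-treated hearts, none of the 10 genes was called higher with constriction, and Fosl2 and Jun were called lower. Of all genes tested, 11.4% were called higher and 12.8% lower between TAC-THZ1 and Sham-THZ1. Fosl2 fell by 0.77 on the log2 scale (SE 0.18, limma adjusted p = 0.007051), with every TAC-THZ1 heart below every Sham-THZ1 heart. Jun fell by 0.39 on the log2 scale (SE 0.089, limma adjusted p = 0.006489), from 1583 to 1803 down to 1136 to 1439.8. The reference, Sham-THZ1, had higher means than Sham-Veh for Fosl2 (728 against 524) and Jun (1669 against 1447). Those differences were not called by limma on all libraries. For both genes the TAC-THZ1 hearts overlapped with the Sham-Veh hearts. No gene was higher at an unadjusted p under 0.05, and edgeR and DESeq2 called 0 higher. The Jun call was lost when TAC-THZ1 replicates 1 and 3 were left out (log2 fold change -0.28, adjusted p = 0.10), an alternative chosen after the data had been seen because these hearts had the highest sums of neutrophil markers.

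The 3 genes with the clearest rise in vehicle hearts had no difference that could be seen under THZ1. Between TAC-THZ1 and Sham-THZ1 the log2 fold change was 0.046 for Atf3 (95% interval -0.62 to 0.71), -0.22 for Egr2 (-1.24 to 0.79) and -0.021 for Myc (-0.53 to 0.49). These intervals still allow changes of that size in either direction. Sham-THZ1 is the reference here, and Atf3 was 118 ± 17.3 (SD, n = 4) normalized counts in it against 69.7 ± 17.5 in Sham-Veh, so the level in TAC-THZ1, 125 ± 34.3, was near the former and above the latter.

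The effect of THZ1 depended on surgery for Atf3, Egr2 and Fosl2. The interaction, the log2 fold change with THZ1 in TAC minus that in sham, was -3.04 for Egr2 (SE 0.68, limma adjusted p = 0.01265), -2.24 for Atf3 (SE 0.44, adjusted p = 0.007154) and -1.06 for Fosl2 (SE 0.25, adjusted p = 0.01726). Each of these calls held when any 1 library was left out, with adjusted p of at most 0.0422. All 10 genes had an interaction below 0, with a median of -0.93 against 0.017 over all genes. In this contrast 5.62% of all genes were called lower and 4.4% higher.

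For all 3 genes the log2 fold changes in sham and in TAC had opposite signs. They were 0.46 and -0.60 for Fosl2, 0.77 and -1.47 for Atf3 and 0.47 and -2.57 for Egr2. The sham changes were not called (limma adjusted p = 0.66 for Fosl2, 0.68 for Atf3 and 0.94 for Egr2). For Egr2 the 95% interval in sham was -0.545 to 1.486. Myc had an interaction of -1.06 that just missed the threshold (SE 0.34, limma adjusted p = 0.0572) and passed it with edgeR (0.0478), with DESeq2 (0.0178) and with library weights (0.0472). Fos had -1.71 (SE 0.77, limma adjusted p = 0.16), which DESeq2 called (-2.28, 0.0448). Junb, Egr1, Fosb, Jun and Jund had interactions from -0.81 to -0.20 that were not called, with limma adjusted p from 0.19 to 0.60. No gene was above 0 at an unadjusted p under 0.05, and edgeR and DESeq2 called 0 higher.

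Spread between hearts was a feature of these genes in its own right. The SD of log2(normalized count + 1) within TAC-Veh had a median of 0.71 over the 10 genes and 0.22 over all genes, and in the other groups the medians were 0.19 against 0.098 (Sham-Veh), 0.28 against 0.092 (Sham-THZ1) and 0.41 against 0.14 (TAC-THZ1). Jun and Jund had narrow spreads in every group, with SDs from 0.080 to 0.19, and Junb had the smallest SD of all in Sham-Veh (0.052). Fos had the widest spread of any gene and group, an SD of 1.29 in TAC-Veh. In some hearts most of the 10 genes deviated in one direction. TAC-Veh replicate 3 was lowest of its group in 9 of the 10 genes and below the group mean in all 10, and TAC-Veh replicate 2 was above the group mean in all 10. In others they did not, as in Sham-THZ1 replicate 1 with 5 genes above its group mean and 5 below.

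**Figure D3:**
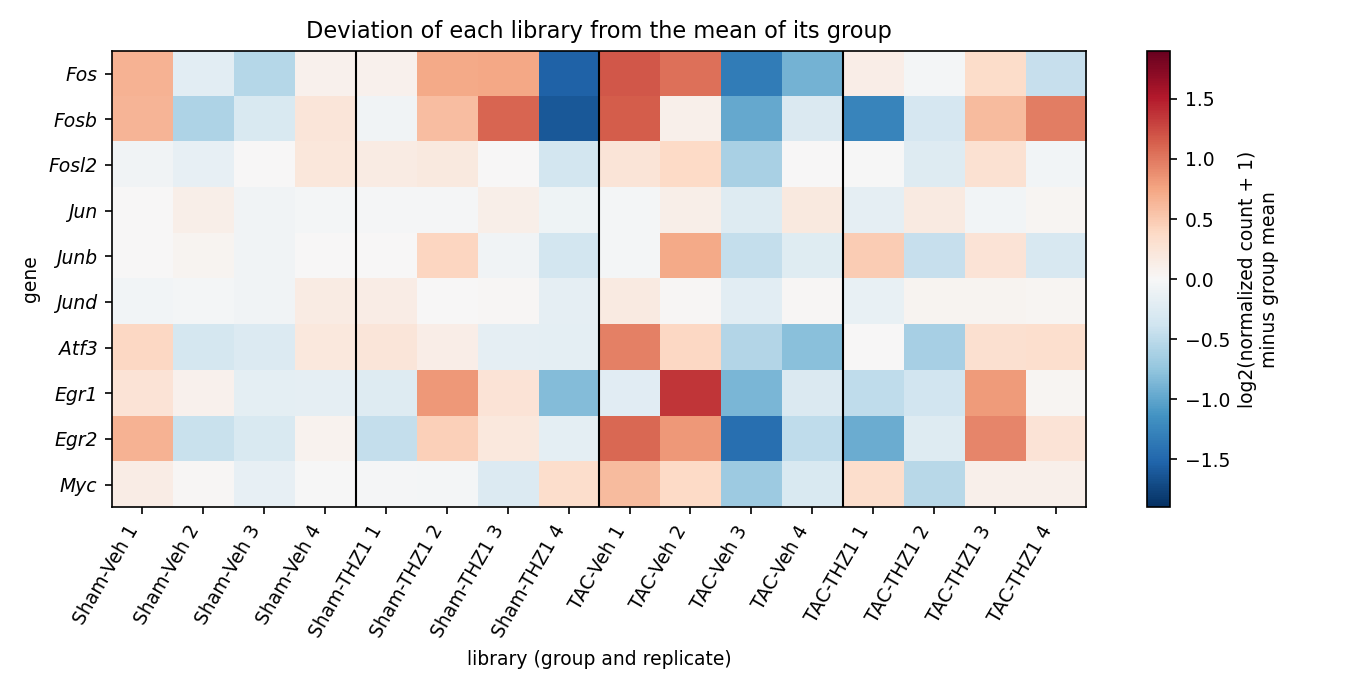
Deviation of each library (x axis) from the mean of its own group on the log2(normalized count + 1) scale, 1 row per gene, red above and blue below. The column of TAC-Veh 3 is blue in all 10 rows, that of TAC-Veh 2 is red in all 10, and Sham-THZ1 4 is darkest blue for Fos and Fosb.

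The TAC-Veh hearts with the most Atf3, Egr2, Fos and Myc, replicates 1 and 2, also had the most Nppa, the atrial natriuretic peptide gene that marks ventricular stress. Nppa had 199788, 112703, 54193 and 49208 normalized counts in TAC-Veh replicates 1 to 4. The same hearts had the highest fibroblast marker sums, 48725 and 59915 against 41048 and 43406. Cardiomyocyte markers summed to 501721 to 728370 in TAC-Veh, 859319 to 1089260 in TAC-THZ1 and 1027640 to 1117840 in the sham groups, and fibroblast markers to 41048 to 59915, 24491 to 35878 and 21112 to 23469. In tissue pieces, fewer cells of a type and less RNA per cell cannot be told apart, and the part of these shifts in the immediate early results was not tested. Sln and Myl7, markers of the atrium, averaged at most 2.33 normalized counts in every group. Myl4, another atrial marker, averaged 33.7 in Sham-Veh and 48.5 in TAC-Veh, and was highest in TAC-Veh replicate 1 at 81.1, the heart with the most Nppa.

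Markers of neutrophils were raised in some TAC-THZ1 hearts. The summed markers had 7122, 974, 3086 and 212 normalized counts in TAC-THZ1 replicates 1 to 4 and at most 567 in any other library. Junb was highest in the same TAC-THZ1 hearts, replicates 1 and 3, with 675 and 576 against 354 and 391. Erythroid markers (31240 and 18210 against 7124 and 8986) and macrophage markers (10410 and 9221 against 5394 and 6427) were highest there too. Without those hearts the Junb interaction was -1.04 and was called (adjusted p = 0.0497), the Myc interaction was called (-1.27, 0.0472), and the 4 genes lower with THZ1 in TAC were still 4. The part of RNA from these blood cells and macrophages in the Junb level was not tested further. Macrophage markers summed to 7704 to 9889 in TAC-Veh, 5394 to 10410 in TAC-THZ1 and 4943 to 6230 in the sham groups.

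Levels between genes can be compared per kilobase (kb) of exon. Jund had the highest mean in every group, overlapping with Jun in Sham-THZ1, at 549 ± 40.7 (SD, n = 4) normalized counts per kb in Sham-Veh, followed by Jun (454 ± 25.9) and Junb (198 ± 7.14). In Sham-Veh these 3 differed from each neighbour with no overlap between hearts. Egr1 (112 ± 16.8) and Fosl2 (89.5 ± 10.1) overlapped, as did Atf3 (35.1 ± 8.81), Myc (26.5 ± 2.27) and Fos (21.4 ± 8.003), and Fosb (5.24 ± 2.09) and Egr2 (5.08 ± 1.93) were lowest. Jun genes thus stood far above Fos genes in the unstressed ventricle, by level of RNA.

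Pressure overload changed that order mainly through Atf3. In TAC-Veh it reached 191 ± 107 normalized counts per kb and took the fourth place, overlapping with Junb above it (345 ± 135) and Egr1 below it (188 ± 145). Egr2 rose from 5.08 ± 1.93 to 45.0 ± 30.4 per kb and then overlapped with Fos (49.4 ± 37.3) and not with Fosb (3.94 ± 2.73). In TAC-THZ1 Atf3 was back at the sixth place (62.9 ± 17.3) and Egr2 next to Fosb (6.50 ± 3.58 and 2.11 ± 1.40).

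**Figure D4:**
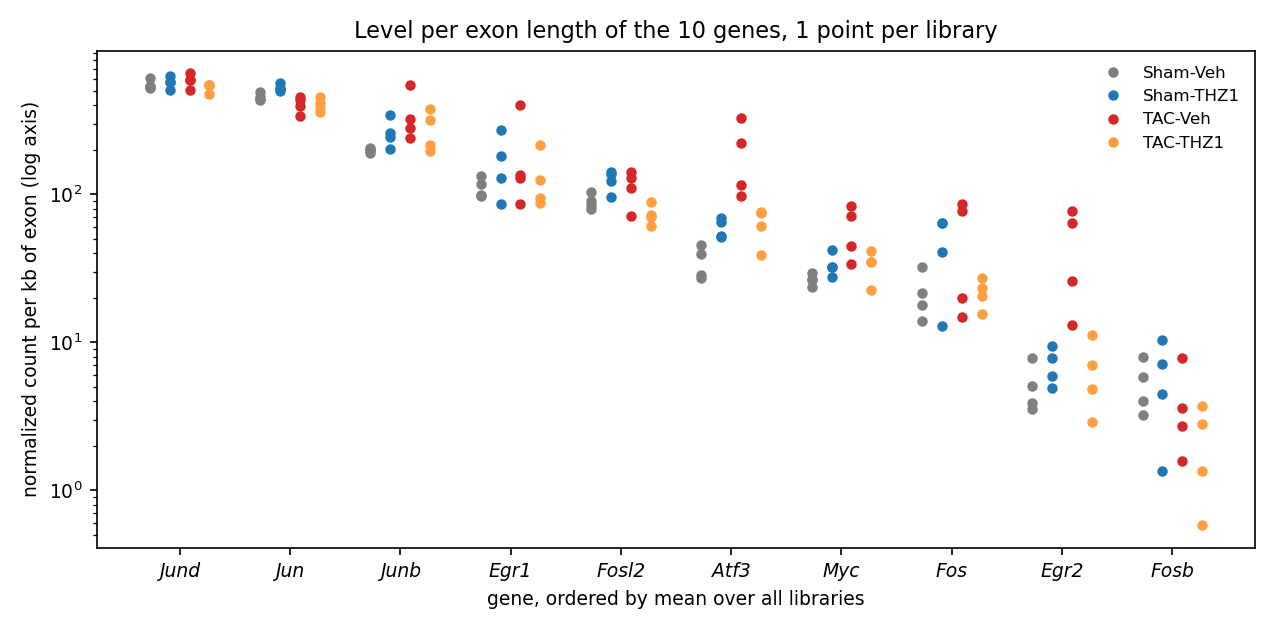
Normalized count per kb of exon (log axis) of the 10 genes, ordered by their mean over all libraries, 1 point per heart and 1 colour per group. Jund, Jun and Junb have the highest means in every group, and the TAC-Veh points of Atf3 and Egr2 are raised above the other groups of the same gene.

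Among AP-1 and Maf partners, small leucine zipper proteins that pair with the AP-1 proteins or share their sites, TAC raised 3 and lowered 4 of 14 tested genes, shares near the 21.4% and 23.6% of all genes. Mafk, a small Maf without an activation domain, rose with TAC (log2 fold change 1.19, SE 0.15, limma adjusted p = 1.366e-05) and fell with THZ1 in TAC (-0.95, SE 0.15, adjusted p = 3.892e-04), and its interaction was called (-1.16, adjusted p = 0.004797). Maff followed the same course in the THZ1 comparison (-1.02, adjusted p = 0.02803). Atf4, the effector of the integrated stress response, rose with TAC by 0.46 (adjusted p = 2.15e-04) and was also higher in TAC-THZ1 than in Sham-THZ1 (0.35, adjusted p = 0.005926). Bach1, a repressor of heme oxygenase, fell with TAC (-0.42, adjusted p = 3.614e-04) and rose with THZ1 in TAC (0.21, adjusted p = 0.04638). THZ1 in TAC raised 1 and lowered 3 of the 14, where 15.1% of all genes were called higher and 14.2% lower.

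The Egr, Nab and Myc network, which holds the corepressors of EGR proteins and the partners and rivals of MYC, had 0 genes called higher with TAC and 3 of 12 called lower, the latter a share near the 23.6% of all genes. Those lower were Mnt (-0.33, adjusted p = 0.04154), Max, the partner of MYC (log2 fold change -0.33, limma adjusted p = 0.03729) and Mga (-0.28, adjusted p = 0.002096). THZ1 in TAC raised 1 and lowered 2 of the 12, where 15.1% of all genes were called higher and 14.2% lower. The gene raised was Mlx (0.19, adjusted p = 0.04849), and those lowered were Mxd3 (-1.66, adjusted p = 0.01165) and Mxd4 (-0.37, adjusted p = 0.02623), which encode MAX partners that oppose MYC. Mnt, another such partner, was also lower in TAC-THZ1 than in Sham-THZ1 (-0.61, adjusted p = 0.003795). Counts of Mxd3 were low, at 10.6 to 26.5 in TAC-Veh and 3.28, 3.82, 2.44 and 8.91 in TAC-THZ1. Its values in TAC-THZ1 replicates 1 to 3 are 3 reads each. At an unadjusted p under 0.05, 1 of the 12 was higher with TAC, where 3344 of all 13331 genes were.

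Of the other immediate early genes, those called with TAC were all higher. Of 32 tested, 14 were called higher and 0 lower, where 21.4% and 23.6% of all genes were. The median log2 fold change was 0.35, and 0 were lower at an unadjusted p under 0.05. Hbegf, a membrane-bound growth factor of the EGF family (2.06, SE 0.19, limma adjusted p = 8.498e-07), and Ptgs2, the inducible cyclooxygenase (2.50, SE 0.26, adjusted p = 2.371e-06), had the smallest adjusted p. THZ1 in TAC lowered 9 and raised 1 of the 32 (median -0.25), where 14.2% and 15.1% of all genes were. Hbegf (-1.45, adjusted p = 1.015e-04) and Arc, the activity-regulated gene first known from neurons (-1.51, adjusted p = 6.398e-04), were at the top of those lowered. Irf1, an interferon factor, was the 1 gene that rose (0.73, adjusted p = 0.04599). It had 1613 and 1824 normalized counts in TAC-THZ1 replicates 1 and 3. In replicates 2 and 4 it had 722 and 658, within the TAC-Veh range of 443 to 784. Replicates 1 and 3 were the hearts with the highest sums of neutrophil markers, and the part of these cells in the Irf1 level was not tested. The interaction was called lower for 7, where 5.62% of all genes were, again with Hbegf (-1.80, adjusted p = 0.002227) and Arc (-1.89, adjusted p = 0.00633) first. Between TAC-THZ1 and Sham-THZ1, Ier5 (0.57, adjusted p = 0.001489), Ier3 (0.52, adjusted p = 0.007218) and 2 more were higher, where 11.4% of all genes were.

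Genes upstream of the immediate early response, its kinases and the factors that bind its promoters, were lower in TAC-Veh for 10 of 20 and higher for 2. Of all genes tested, 23.6% were called lower and 21.4% higher. Mef2a, a muscle factor (log2 fold change -0.68, limma adjusted p = 8.266e-06), and Mapk14, the kinase p38 alpha (-0.57, adjusted p = 1.747e-05), led those that fell, and Crem (0.35, adjusted p = 0.003994) and Mapk3, the kinase ERK1 (0.20, adjusted p = 0.007261), rose. THZ1 in TAC raised 3 and lowered 2 of the 20, shares near the 15.1% and 14.2% of all genes. Those raised included Fbxw7, part of the ubiquitin ligase that degrades MYC and JUN (0.44, adjusted p = 0.005565), and Mapk14 (0.26, adjusted p = 0.01571). It lowered Elk4 (-1.07, adjusted p = 0.005668) and Crem (-0.28, adjusted p = 0.02689). Elk4 was also lower with THZ1 in sham hearts, with a mean of 65.2 normalized counts in Sham-THZ1 against 148 in Sham-Veh. Those sham groups did not overlap, although the difference was not called, so the fall of Elk4 was not limited to constricted hearts. The interaction was called for Fbxw7 alone (0.53, adjusted p = 0.03499), where 4.4% of all genes were called higher. Mapk14 (-0.47, adjusted p = 8.778e-04) and Mef2d (-0.69, adjusted p = 0.00131) remained lower in TAC-THZ1 than in Sham-THZ1.

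Most known targets of AP-1 and EGR1 were raised by constriction, and most were lowered by THZ1 in constricted hearts. The shares called in the opposite directions were not larger than those of all genes. For constriction in vehicle hearts, 21.4% of all genes were called higher and 23.6% lower. TAC raised 13 and lowered 2 of 20 (median log2 fold change 0.79), led by Mmp2, a gelatinase (1.36, SE 0.14, limma adjusted p = 2.148e-06), and Timp1, a protease inhibitor (4.11, SE 0.47, adjusted p = 5.688e-06). Pdgfa (-0.41, adjusted p = 0.001785) and F3, tissue factor (-0.61, adjusted p = 0.004856), fell. THZ1 in TAC lowered 11 and raised 3 (median -0.52), where 14.2% and 15.1% of all genes were. Mmp2 (-1.32, adjusted p = 3.193e-05) and Thbs1, thrombospondin 1 (-2.65, adjusted p = 1.981e-04), were at the top of those lowered. The interaction was lower for 9, where 5.62% of all genes were. Mmp9, an enzyme that neutrophils carry in abundance, had the smallest adjusted p of those that rose (2.74, adjusted p = 9.43e-04). The fibroblast marker sums given above rose with TAC and were lower in TAC-THZ1 as well, and their part in these counts was not tested.

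Myc targets rose with TAC for 7 of 20 and fell for 3, where 21.4% and 23.6% of all genes did. THZ1 in TAC lowered 2 and raised 3 of the 20, shares near the 14.2% and 15.1% of all genes. Odc1, the first enzyme of polyamine synthesis, rose with TAC (log2 fold change 0.64, limma adjusted p = 1.144e-05) and stayed higher in TAC-THZ1 than in Sham-THZ1 (0.36, adjusted p = 0.004661). Eif4a1, a translation factor, rose with TAC (0.68, adjusted p = 5.595e-05) and fell with THZ1 (-0.29, adjusted p = 0.04057). Hspd1 (-0.50, adjusted p = 2.808e-04) and Cad (-0.70, adjusted p = 0.002562) fell with TAC. Eif4e, the cap-binding factor, rose with THZ1 in TAC (0.37, adjusted p = 0.002731) and had the 1 interaction called among these targets (0.55, adjusted p = 0.008391).

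Heat shock genes, which answer protein damage and are often induced with the immediate early genes, were higher with TAC for 6 of 10 and lower for 1. Of all genes tested, 21.4% were called higher and 23.6% lower. Hspb1 rose by 1.27 on the log2 scale (SE 0.077, limma adjusted p = 4.494e-08) and Hsp90aa1 by 1.08 (SE 0.10, adjusted p = 9.151e-07), and Hspa5, an endoplasmic reticulum chaperone, fell (-0.46, adjusted p = 8.928e-04). THZ1 in TAC lowered 4 and raised 0, where 14.2% and 15.1% of all genes were. Hspb1 (-0.64, adjusted p = 5.979e-05) and Hsp90aa1 (-0.67, adjusted p = 2.604e-04) came first, and 0 of the 10 were higher at an unadjusted p under 0.05. In sham hearts 0 of the 128 genes tested on these 7 lists were called with THZ1. At an unadjusted p under 0.05, limma put 6 of the 128 higher and 8 lower. Of all 13331 genes, 448 and 469 were.

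**Figure D5:**
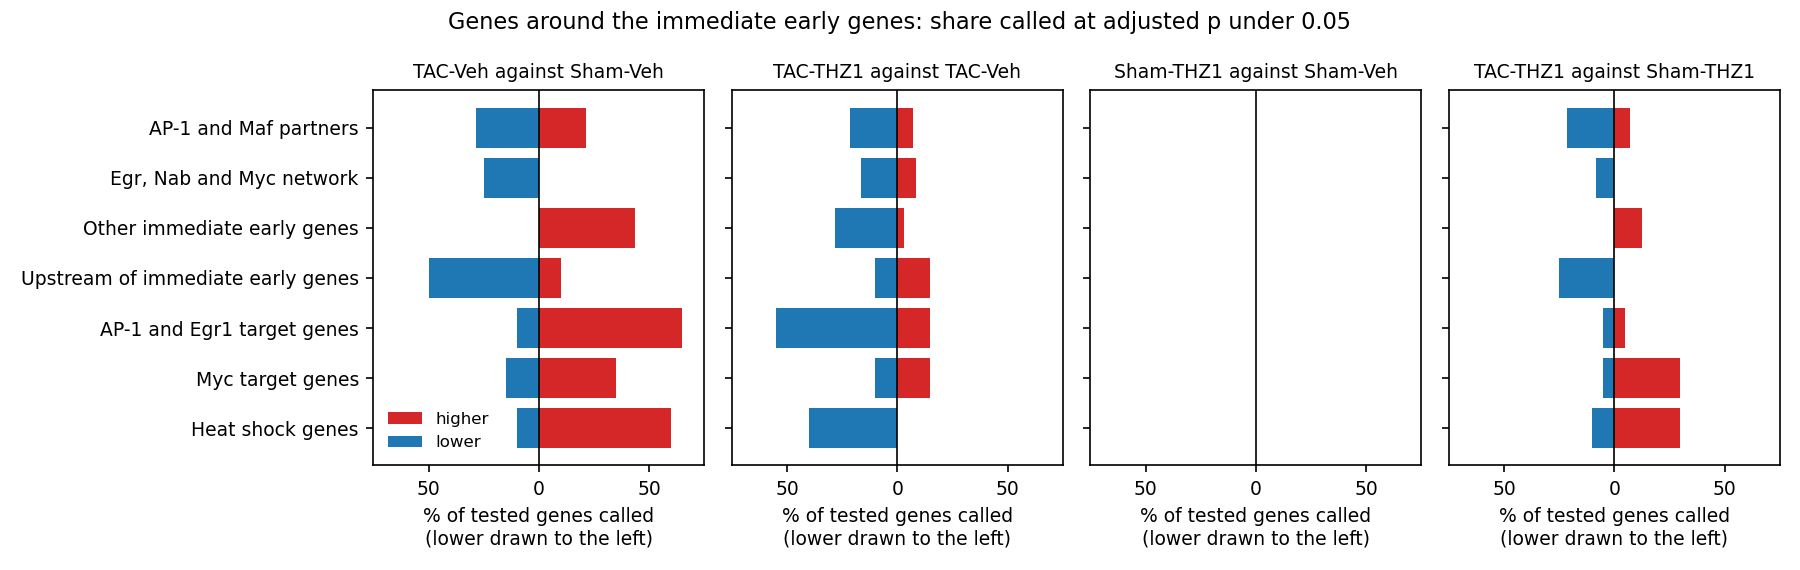
Share of the tested genes of each list called higher (red, to the right) or lower (blue, to the left) at a limma adjusted p under 0.05, in percent, for 4 comparisons. Other immediate early genes (14 of 32), AP-1 and Egr1 target genes (13 of 20) and heat shock genes (6 of 10) extend to the right with TAC and to the left with THZ1 in TAC, and the panel for THZ1 in sham is empty. Over all genes tested, 21.4% were called higher with TAC.

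Genes whose log2 values followed those of a member over the 16 libraries are given as a description, since the points share the differences between the 4 groups. Fos was followed most closely by Apold1 (Pearson r = 0.878), Sik1 (0.857), Nr4a1 (0.856), Adamtsl1 (0.853) and Slc25a25 (0.837), and Egr1 by Egr3 (0.82), Ier2 (0.802), Actg1 (0.78), Il1b (0.756) and Fos (0.74). Sik1, Nr4a1, Egr3 and Ier2 are immediate early genes themselves. Nr4a1 had 771, 701, 221 and 257 normalized counts in TAC-Veh, high in the same 2 hearts as Fos, and was not called with TAC (log2 fold change 0.57, limma adjusted p = 0.37). Atf3 was followed by Atp9a (0.976), Lmna (0.964), Eif1a (0.96), Sept5 (0.957) and Sfxn3 (0.954), and Myc by Sept5 (0.944), Crlf2 (0.941), Inhbb (0.928), Reln (0.926) and Ugdh (0.926). Genes that followed Fosl2 included Nfkb1 (0.841), Fem1b (0.835), Slc39a14 (0.834) and Fbxo30 (0.833).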

How the data were processed

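Polyadenylated RNA of 16 mouse ventricle pieces, 4 per group, was made into stranded libraries and read from 1 end. The authors aligned reads with TopHat2 2.1.1 to mm9, counted them per gene by strand with HTSeq and deposited the normalized counts, a depth-scaled signal in which each library is divided by its DESeq2 size factor (0.749 to 1.40). All values were whole reads after multiplication by that factor (100% within 0.01), and the recovered reads came to 21.4 to 35.8 M per library, with 3 reads worth 2.15 to 4.01 normalized counts.

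Groups came from the sample titles. Genes with at least 10 normalized counts in at least 4 libraries (13331 of 22372) were tested in R 4.3.3 with limma 3.58.1. The model gave every group its own mean of log2(normalized count + 1), used all 16 libraries and had moderated variances with a trend on the mean, two-sided p and Benjamini-Hochberg adjustment over all genes tested. The pseudocount understates changes of low genes such as Fosb and Egr2. edgeR 4.0.16 and DESeq2 1.42.0 on the recovered reads were alternatives, and edgeR called 3017 genes higher and 3050 lower with TAC and 1956 higher and 2025 lower with THZ1 in TAC. The fits were tested on simulated data. From each list, up to 2 genes called higher and 2 called lower with the smallest adjusted p per comparison were named, and exceptions were Maff, Myl4, Mnt, Nr4a1, Nr4a3 and Nppa, chosen after their values were seen. The 10 genes and the lists were chosen with earlier results of these data known. Labels do not say how mice shared litters or surgery days, so p-values measure the spread between these mice. RefSeq promoters were placed on mm9 by exact match. One gene that the naming rule selects is not reported here. Figures were drawn with Matplotlib 3.10.9.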

Additional observations from a re-analysis of the deposited data

Results flagged for a closer look

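THZ1 changed these genes differently after TAC than after sham surgery: Fosl2 (difference of the log2 fold changes -1.06), Atf3 (-2.24) and Egr2 (-3.04), each by the limma interaction test with adjusted p of 0.01726, 0.007154 and 0.01265. For Atf3 the fold change was below 0 in TAC (-1.47) and above 0 in sham (0.77), and for Egr2 it was -2.57 and 0.47.

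Jund had 1 heart far from the other three in 2 groups on the log2 scale by Dixon's test. Sham-Veh replicate 4 had 1754 normalized counts against 1501 to 1539 in the others, and TAC-THZ1 replicate 1 had 1373 against 1565 to 1581. Of 40 groups tested 2 stood out in this way, and chance gives about 1 in 20.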

How the results depend on the processing

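The rise of Atf3 and Egr2 with TAC, their fall with THZ1 in TAC and the interactions of Atf3, Egr2 and Fosl2 were called in every alternative run. The number of the 10 genes lower with THZ1 in TAC was 4 and became 2 with only the groups compared, 2 with library weights and 2 with the study's fold threshold. In sham hearts 3 genes were called higher with only the groups compared and 2 with library weights. Between TAC-THZ1 and Sham-THZ1, 1 gene was lower without TAC-THZ1 replicates 1 and 3, chosen after the data had been seen, and 0 with the fold threshold. The interaction was lower for 5 genes with DESeq2 and for 5 without those replicates. The causes were not tested.

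With 1 library left out, the genes higher with TAC were 3 to 5 and lower 0 to 1 (Jun, without TAC-Veh replicate 4), lower with THZ1 in TAC 2 to 5, lower between TAC-THZ1 and Sham-THZ1 2 to 3, and lower in the interaction 3 to 5. Signs turned only for differences that were not called. Jun with THZ1 in TAC was 0.0080 with library weights, 0.10 without TAC-THZ1 replicates 1 and 3, and -0.091 to 0.051 with 1 library left out, and Egr1 was -0.64 to 0.10. Fosb with THZ1 in sham was 0.074 with library weights, 0.15 with edgeR and 0.15 with DESeq2, and -0.44 to 0.46 with 1 library left out. Between TAC-THZ1 and Sham-THZ1, Junb was -0.064 with library weights and -0.32 without replicates 1 and 3 (-0.11 to 0.20 with 1 library left out), Atf3 -0.11 without them (-0.062 to 0.26), Myc 0.0021 with edgeR (-0.13 to 0.16) and Egr2 -0.53 to 0.088.

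Over all genes, THZ1 in TAC called 2019 higher and 1899 lower, against 583 and 816 with only the groups compared and 1310 and 1102 with library weights. In sham hearts 3 and 6 became 287 and 178 with only the groups compared, 254 and 259 with library weights and 13 and 20 with DESeq2. With library weights the interaction had 911 and 921 in place of 587 and 749, and TAC-THZ1 against Sham-THZ1 had 2379 and 2632 in place of 1514 and 1706. With the replicate number as a block the counts of the 10 genes did not move (4 higher with TAC, 4 lower with THZ1 in TAC, 0 in sham, 2 lower between THZ1 groups, 3 in the interaction). Deviations of same-numbered libraries correlated from -0.431 to 0.164. Differently numbered libraries were not compared, so this cannot tell whether same-numbered mice shared a litter or surgery day. Depth limits Fosb most, whose lowest library held 2 reads, and Egr2 was also low, with 9 reads in its lowest library. The Egr2 log2 fold change with TAC ran from 2.57 to 3.16 over the other settings, and was called in each.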

Other observations

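The Nr4a family of orphan nuclear receptors, immediate early genes outside the 10, was looked at after its values were seen. Nr4a3 had 84.9, 70.6, 103 and 91.9 normalized counts in Sham-Veh and 253, 258, 223 and 229 in Sham-THZ1, with no overlap, and was called higher with THZ1 in sham hearts (log2 fold change 1.46, SE 0.21, limma adjusted p = 0.00667). It was one of 3 genes called higher in that comparison. In TAC-Veh it had 392, 177, 249.7 and 249.6, and in TAC-THZ1 it had 193, 111, 127 and 105. Nr4a3 rose with TAC (1.55, adjusted p = 2.625e-05), fell with THZ1 in TAC (-0.97, adjusted p = 0.002938) and had an interaction of -2.43 (adjusted p = 0.001765). Nr4a1 and Nr4a2 were not called in sham hearts (0.88, adjusted p = 0.78, and 0.23, adjusted p = 0.95).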
